A study of Sus scrofa with 12 samples.

Results

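Peaks of the transcription factor C/EBP-β were described near 9 genes of matrix proteases and their inhibitors in the pig endometrium, the mucosa of the uterus. The genes were chosen by name: the proteases ADAMTS1, MMP2, MMP9, MMP14 and PLAU, the protease receptor PLAUR, and the inhibitors TIMP1, TIMP2 and TIMP3. All 9 were found among the 19550 protein-coding genes on the assembled chromosomes of the pig build Sscrofa11.1 (susScr11). For each gene, peak summits within 5 kb and within 50 kb of either end of the gene were counted. The tissue came from pregnant pigs (Sus scrofa), either on day 12 or on day 15 of gestation, and each day is represented by 3 libraries of chromatin precipitated with a C/EBP-β antibody (ChIP). The labels give no breed, age or treatment. Whether each replicate is another animal is not stated, so the p-values cover the spread among these libraries, and that spread may be technical. Whole tissue was used, so summits cannot be assigned to epithelium, stroma, vessels or immune cells. No expression was measured, and the markers of the tissue could not be checked.

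C/EBP-β, of the basic leucine zipper class, acts in uterine stroma and epithelium and in myeloid cells. Matrix metalloproteinases cleave collagens and other matrix proteins and are made as inactive precursors. The membrane-anchored enzyme MMP14 activates the MMP2 precursor with the help of TIMP2, and the TIMP proteins block the active enzymes. PLAU (urokinase) turns plasminogen into plasmin when it is held at the cell surface by its receptor PLAUR. In the pig the conceptus attaches to the uterine surface without breaching it, and these proteases and inhibitors are known for their part in remodelling the endometrium in early pregnancy.

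The lists of summits differed widely in length within each day. They held 6557, 33294 and 57728 summits in day 12 replicates 1 to 3, against 70152, 16529 and 11960 in those of day 15. The files hold 1 bp summits and a score but no reads, so depth is unknown and no value has a counting interval. A directory path precedes the peak names in day 12 replicate 1 and in replicates 2 and 3 of day 15 (set A) but not in the other libraries (set B). What this split stands for is not stated. Every set A list is shorter than every set B list, so set and list length cannot be told apart. The peak names of day 15 replicate 3 do not name the protein, and its ChIP target rests on the labels. They also carry the same sample code as those of day 15 replicate 2, so day 15 may hold fewer than 3 separate animals. The 2 lists are not copies: 67.6% of the summits of replicate 3 lay within 200 bp of one of replicate 2 and 72.8% within 200 bp of one of replicate 1. Both are counted as libraries below, and results that turn on them are also given with one left out. A summit within 5 kb was found for 17.2% to 64.8% of all genes in a library.

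Within 5 kb, more of the 9 genes had summits in at least 2 libraries on day 15 than on day 12. Counting a gene for a day when at least 2 of its 3 libraries had a summit, 2 of 9 genes were counted on day 12 (MMP2 and TIMP2) and 6 of 9 on day 15 (ADAMTS1, MMP2, MMP14, TIMP2, TIMP3 and PLAUR). Among all genes the shares were 38.1% on day 12 and 46.3% on day 15. With 1 library of 3 enough, 7 of 9 genes were counted on each day, and with a score of at least 10, 1 on each day. The share of all genes under these rules is not given, so these counts cannot be read as a trait of the members. In single libraries at any score it was already 54.1% in day 12 replicate 3 and 64.8% in day 15 replicate 1, which bears on the first rule alone. Under the rule of 2 libraries the members lay below the background on day 12 (22.2%) and above it on day 15 (66.7%), with only 9 genes behind each share. MMP2 and TIMP2 were counted on both days, against 30.5% of all genes. ADAMTS1, MMP14, TIMP3 and PLAUR were counted on day 15 alone, as were 15.8% of all genes, and no member was counted on day 12 alone (7.61% of all genes). PLAU, MMP9 and TIMP1 were counted on neither day, against 46.1% of all genes.

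Per library, day 12 had 1, 2 and 7 of the 9 genes with a summit within 5 kb and day 15 had 7, 6 and 4. The days overlapped, and the high day 12 library was replicate 3, the longest list of that day. The mean of day 12 was 3.33 ± 3.21 genes and that of day 15 was 5.67 ± 1.53 (SD, n = 3 each), and the difference of 2.33 was smaller than the spread between libraries (pooled SD 2.52). Within sets the mean difference was 3.25 genes. In each set every day 15 list was longer than every day 12 list, so this value does not separate day from list length. The share of all genes with a summit, printed beside the members in the plot of shares by library, was, like the number of members, highest in the 2 longest lists and lowest in the shortest. It was 17.2%, 38.4% and 54.1% on day 12 and 64.8%, 44.6% and 37.6% on day 15.

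**Figure D1:**
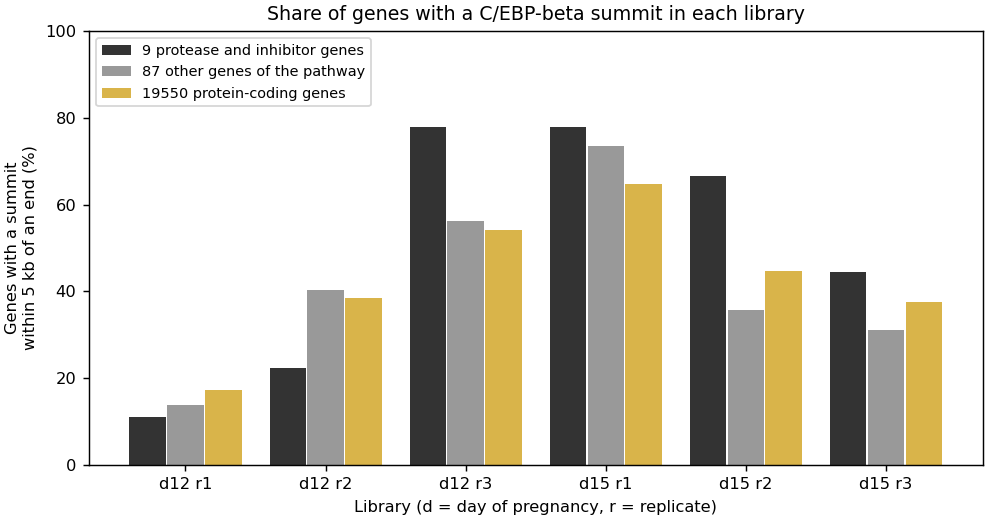
Bars give the percentage of genes that had a summit in the 5 kb window of each library, for the 9 members, the 87 other genes of the pathway and all 19550 protein-coding genes. In day 12 replicates 1 and 2 the members lie below all genes (11.1% and 22.2% against 17.2% and 38.4%), and in the other 4 libraries above them.

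The day of a gene often turned on 1 library. No member was present in 3 of 3 libraries of one day and 0 of 3 of the other. Among all genes 2.83% had that pattern in favour of day 15 and 0.0307% in favour of day 12. Without day 12 replicate 3, ADAMTS1, MMP14 and TIMP3 had a summit in every day 15 library and in neither remaining day 12 library. Over all genes the same then held for those with the pattern of these members (5.21%) and those already at 3 of 3 against 0 of 3 (2.83%). The day 12 count was 1 without day 12 replicate 2 and 1 without replicate 3, and in both cases both remaining libraries had to have a summit. The day 15 count was 4 without replicate 1 of day 15, 4 without replicate 2 and 6 without replicate 3, the last 2 being the libraries with the same sample code. When each list was reduced to its 6557 highest-scoring summits, 0 members were counted on day 12 and 1 (TIMP2) on day 15, against 9.68% and 20.3% of all genes.

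**Figure D2:**
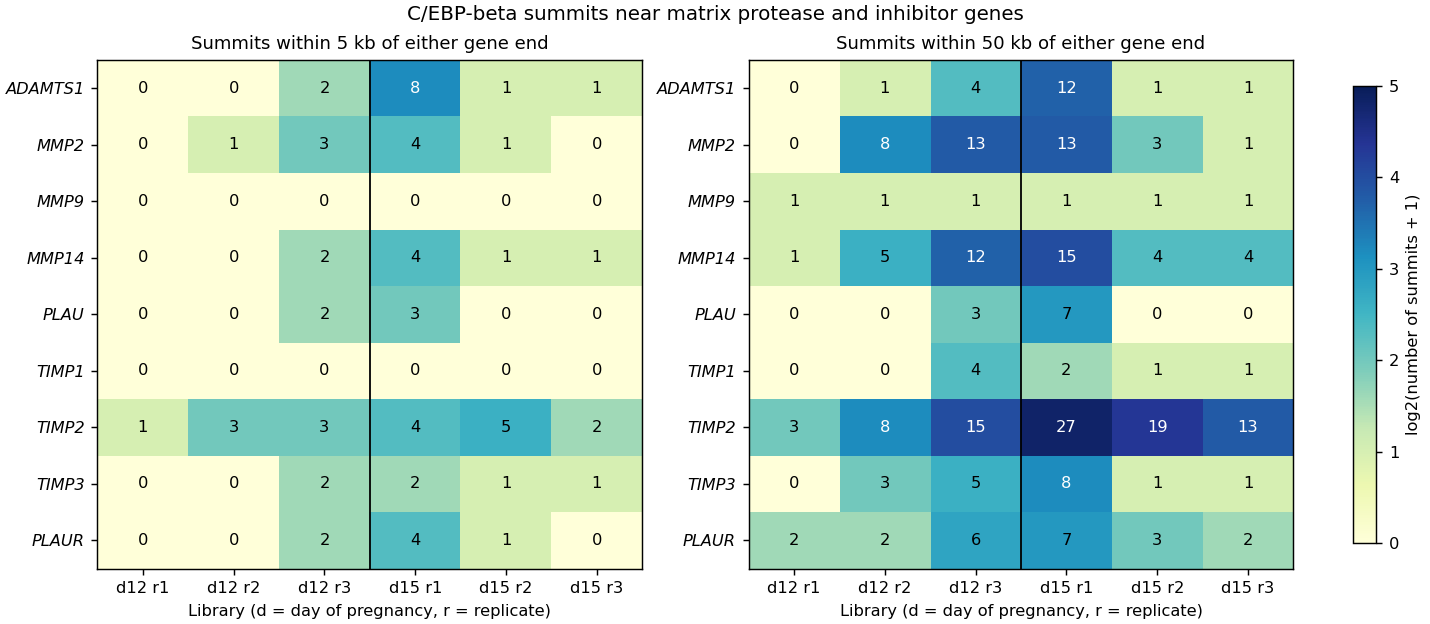
Each cell gives the number of summits of 1 library (columns) near 1 gene (rows), within 5 kb of either gene end on the left and within 50 kb on the right. The colour is log2 of the number plus 1. TIMP2 has a summit within 5 kb in all 6 libraries, and MMP9 and TIMP1 in none.

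ADAMTS1, a secreted protease that cleaves proteoglycans such as versican and aggrecan, lies on chromosome 13 (190277175 to 190285957). Within 5 kb its counts were 0, 0 and 2 in day 12 replicates 1 to 3 and 8, 1 and 1 in the same order on day 15. The 8 summits of day 15 replicate 1, the longest list, stood apart from every other library. Each day 15 library had a summit just outside the upper-coordinate end, at 0.1 kb in replicates 1 and 2 and 0.4 kb in replicate 3. These were low in 2 of the lists: their score percentiles, ranks within a list in which 100 is the top, were 68.0, 11.1 and 13.5. Day 12 replicate 3 had a summit 0.6 kb outside the same end at percentile 19.5. The protein-coding locus LOC110256366 overlaps that end and LOC110256469 begins 0.5 kb from it, so these summits also lie near other genes. No site near ADAMTS1 recurred in more than 2 libraries when summits within 200 bp were joined.

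MMP2 (gelatinase A, which cleaves type IV collagen and gelatin) lies on chromosome 6 (30059247 to 30087031). It had 0, 1 and 3 summits within 5 kb on day 12 and 4, 1 and 0 on day 15, so the days overlapped. The most recurrent of its sites lay inside the gene, 8.2 kb from the upper end (chromosome 6, 30078796 to 30078841), outside the 5 kb window. It had a summit in 5 of 6 libraries, all but day 12 replicate 1, at percentiles 64.8 and 72.2 on day 12 and 96.6, 88.1 and 41.1 on day 15. The annotation used gives no exons, so exon and intron could not be told apart. A second site, 1.7 kb beyond the upper end (30088718 to 30088729), was found in 4 of 6 libraries, 2 of each day, at percentiles 51.4 and 87.8 on day 12 and 81.8 and 29.4 on day 15. The summits of this site lay within 12 bp of each other. A site 30.0 kb below the lower end (30029134 to 30029214), inside the neighbouring gene LPCAT2, also recurred in 2 libraries of each day.

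MMP14 (MT1-MMP, the membrane-anchored collagenase that activates MMP2) lies on chromosome 7 (76174502 to 76185931). It had 0, 0 and 2 summits within 5 kb on day 12 and 4, 1 and 1 on day 15. One site lay 1.5 kb below the lower end (76172896 to 76173065), nearer to MMP14 than to any other gene, in 1 of 3 day 12 and 3 of 3 day 15 libraries. Its percentiles were 59.4 in day 12 replicate 3 and 76.3, 50.5 and 63.1 in day 15 replicates 1 to 3. A pattern of 3 of 3 day 15 and 1 of 3 day 12 libraries, seen at 5 kb for ADAMTS1, MMP14 and TIMP3, was held by 6.11% of all genes. A further site inside MMP14, 3.1 kb from the upper end, was found in day 12 replicate 3 and day 15 replicate 1.

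MMP9 (gelatinase B, a protease of neutrophils and macrophages among other cells) had no summit within 5 kb in any library, as had 29.5% of all genes. It lies on chromosome 17 (48179690 to 48186782). Within 50 kb it had exactly 1 summit in each of the 6 libraries, and these formed a single site (48153083 to 48153346) 26.4 kb below the gene. That site lay 27 bp from an end of ZNF335, a zinc finger gene. Its percentiles were 3.26, 35.9 and 70.8 on day 12 and 93.9, 97.0 and 96.5 on day 15. No other summit fell in the 50 kb on either side of MMP9.

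PLAU (chromosome 14, 76629313 to 76635173) had 2 summits within 5 kb in day 12 replicate 3, 3 in day 15 replicate 1 and none in the other 4 libraries. These were the longest lists of their days, and both belong to set B. A site inside the gene, 1.0 kb from the lower end (76630320 to 76630332), had summits 12 bp apart in these 2 libraries, at percentiles 34.7 on day 12 and 83.4 on day 15. A second site 1.9 kb beyond the upper end (76637026 to 76637028) had summits 2 bp apart, at percentiles 61.9 and 67.5. PLAU lies inside LOC102160869 and overlaps CAMK2G, a calcium-dependent kinase gene, and the overlap with CAMK2G holds the first of these sites.

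PLAUR, which encodes the urokinase receptor, lies on chromosome 6 (50489773 to 50505453). It had 0, 0 and 2 summits within 5 kb on day 12 and 4, 1 and 0 on day 15. They lay around its upper end, which overlaps LOC106507601, and no site within 5 kb recurred in more than 2 libraries. The highest percentile within 5 kb of PLAUR in a library was 7.01 in day 12 replicate 3 and 60.4 and 33.3 in day 15 replicates 1 and 2. At 50 kb PLAUR had a summit in every library, but its 2 sites present in all 6 belonged to other genes by distance. One lay 47.6 kb below PLAUR (50442097 to 50442134) and 18 bp from an end of IRGQ, with percentiles of at least 99.5 in each list. The other lay 29.9 kb below PLAUR (50459853 to 50459916) and 0.8 kb from an end of ZNF428.

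TIMP2, the inhibitor that also takes part in the activation of MMP2, lies on chromosome 12 (3254794 to 3300835). It was the one member with a summit within 5 kb in all 6 libraries, against 13.1% of all genes. The counts were 1, 3 and 3 on day 12 and 4, 5 and 2 on day 15, so the days overlapped. Several sites lay around its lower end. A site 1.6 kb below that end (3253008 to 3253201) had a summit in 3 of 3 day 12 libraries, at percentiles 12.8, 78.4 and 81.0, and in day 15 replicate 1 alone of that day, at 31.3. A site 3.6 kb below it (3251087 to 3251362) had one in day 12 replicate 3 only of that day, at percentile 36.1, and in all 3 day 15 libraries, at 64.9, 51.0 and 2.69. Closer to the gene, 0.6 kb below the end (3254163 to 3254217), summits were found in day 15 replicates 1 and 2 (percentiles 78.4 and 87.7). Day 15 replicate 3 had one 0.3 kb below the end at percentile 72.0, while no day 12 library had a summit between this end and the site 1.6 kb below it. Just inside the same end, by 0.2 kb, day 12 replicate 2 had a summit at percentile 6.59. A site 4.7 kb beyond the upper end (3305571 to 3305669), nearer to USP36, was found in 2 libraries of each day. These positions were singled out after their values were seen, and no test was made of them.

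The 46.0 kb TIMP2 gene also held summits along its length. A site 20.5 kb from its upper end (3280287 to 3280398) was found in 5 of 6 libraries, 2 of day 12 and 3 of day 15. Another, 8.0 kb from that end (3292834 to 3292969), was found in day 12 replicates 1 and 3 and in all day 15 libraries, with percentiles of 21.95 and 5.02 on day 12 and 71.15, 76.8 and 79.5 on day 15. By distance to gene ends, the first of these was nearer to CEP295NL, a gene nested inside TIMP2, at 5.6 kb. The 1 site near TIMP2 shared by all 6 libraries (3309001 to 3309061) lay 8.2 kb beyond the upper end and 0.2 kb from USP36, which encodes a nucleolar deubiquitinase. Its highest percentile was 99.3, in day 15 replicate 3.

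TIMP3, the inhibitor that binds to the matrix itself, lies on chromosome 5 (12185816 to 12242599), inside the larger gene SYN3. It had 0, 0 and 2 summits within 5 kb on day 12 and 2, 1 and 1 on day 15. A site at its upper end (12242431 to 12242695), whose middle was 19 bp from that end, held 1 summit of each of those 4 libraries. The percentiles were 21.4 in day 12 replicate 3 and 59.1, 4.50 and 25.8 on day 15, below the middle of the list in all but day 15 replicate 1. A site 13.5 kb beyond this end (12256109 to 12256148) was found in the 3 set B libraries, day 12 replicates 2 and 3 and day 15 replicate 1, at 66.0, 69.5 and 86.8. An end of TIMP3 was nearer than any other gene end to all 18 summits counted within 50 kb of it, though all lie inside SYN3.

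TIMP1, a secreted inhibitor of most metalloproteinases, lies on chromosome X (42103251 to 42106289) inside SYN1, a synapsin gene. It had no summit within 5 kb in any library. Within 50 kb it had 0, 0 and 4 summits on day 12 and 2, 1 and 1 on day 15. Its most recurrent site (42078170 to 42078390), in 1 of 3 day 12 and 3 of 3 day 15 libraries, lay 24.9 kb below TIMP1 and 0.1 kb from an end of ARAF, a RAF kinase gene. None of the 8 summits near TIMP1 was nearer to it than to another gene. The 3 inhibitors therefore differed among themselves, with TIMP2 in all 6 libraries at 5 kb, TIMP3 in 4 and TIMP1 in none.

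**Figure D3:**
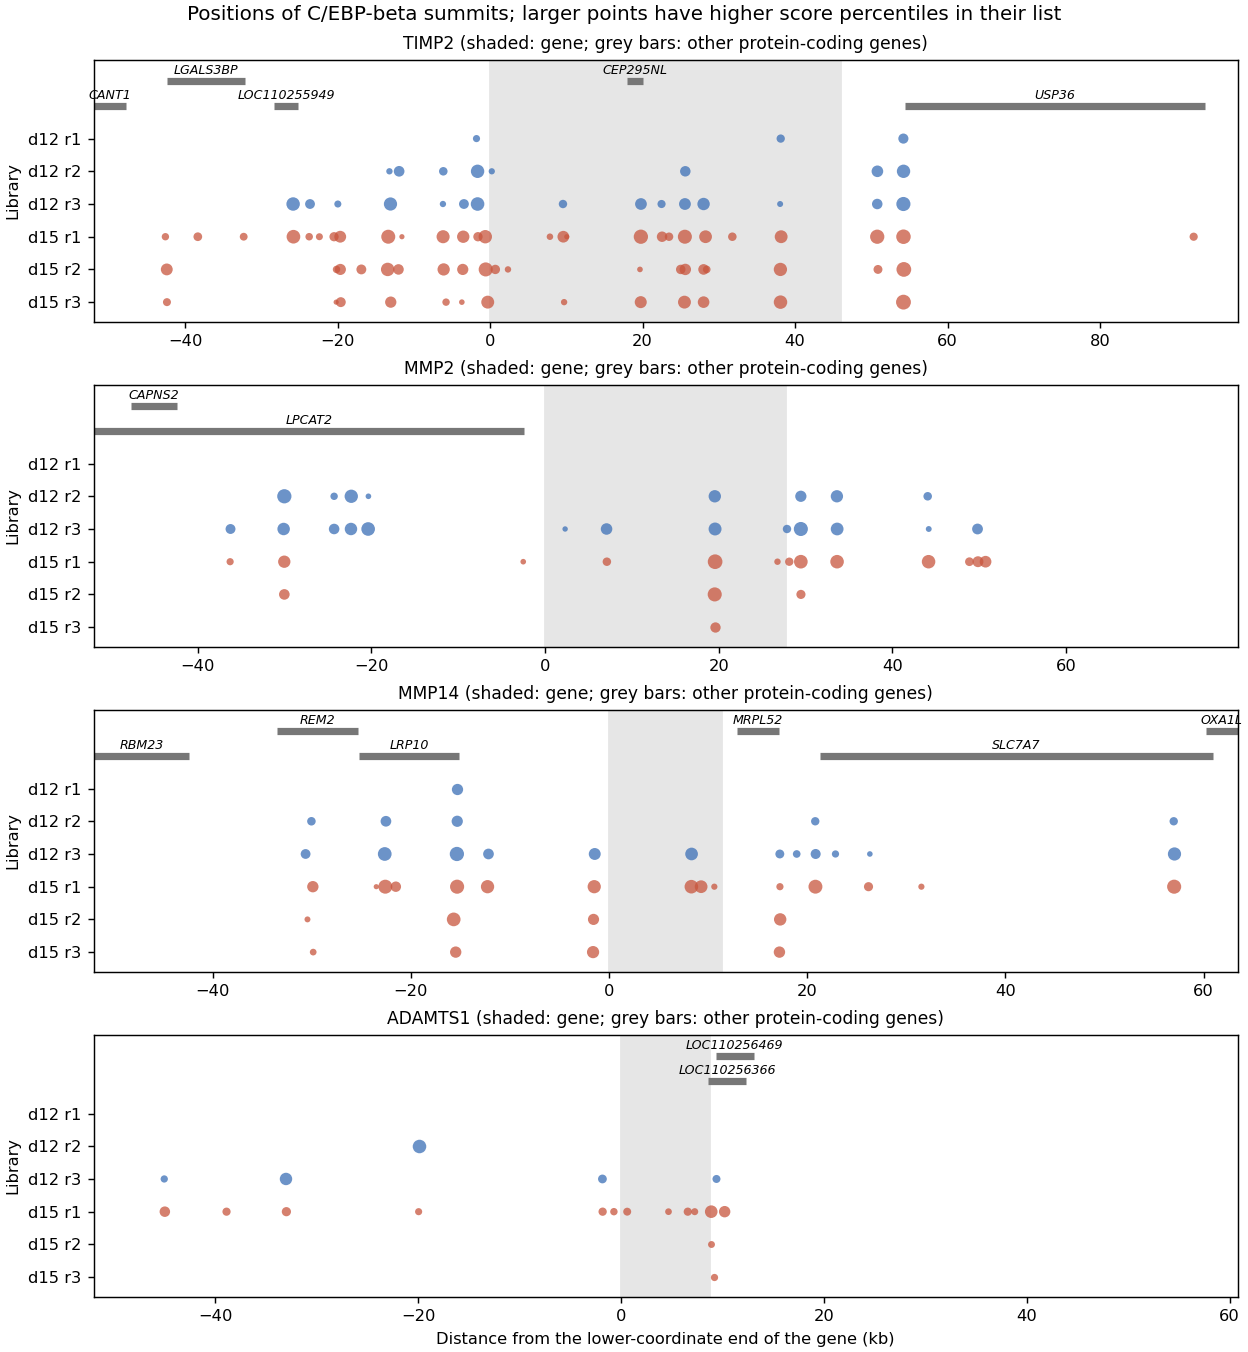
Points mark summits of each library (rows; day 12 blue, day 15 red) by their distance in kb from the lower-coordinate end of TIMP2, MMP2, MMP14 and ADAMTS1. The shaded span is the gene, grey bars are other protein-coding genes, and larger points have higher score percentiles. The column at USP36 in the TIMP2 panel runs through all 6 libraries, and the column inside MMP2 through 5.

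Within 50 kb, 247 summits were counted over the 9 genes, of which TIMP2 had 85, MMP14 41 and MMP2 38. In 105 of the 247 (42.5%) the nearest end of a protein-coding gene was that of the member, against 38.5% of such pairs over all genes. Gene bodies were ignored in this measure, so a summit inside another gene could still count for the member. This was so for all 18 summits of TIMP3, which lie inside SYN3. The share differed widely among members. It was 100% for TIMP3, 68.4% for ADAMTS1, 65.8% for MMP2 and 60.0% for PLAU, then 32.9% for TIMP2, 31.8% for PLAUR and 19.5% for MMP14, and 0 for MMP9 and TIMP1. Per library, day 12 had 4, 7 and 9 members with a summit at this distance, against 46.6%, 80.7% and 88.4% of all genes, and day 15 had 9, 8 and 8, against 90.4%, 71.6% and 65.1%. By day, 7 of 9 members were counted on day 12 and 8 on day 15, beside 80.0% and 74.2% of all genes. MMP9, MMP14, TIMP2 and PLAUR, 4 of the 9, had a summit in all 6 libraries, against 40.5% of all genes.

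When summits within 200 bp were joined, 118 sites lay within 50 kb of a member. Of these 54 (45.8%) came from 1 library and 20 (16.9%) from at least 4, against 50.5% and 11.6% of the 99058 sites of the series. The sites of the series include those far from any gene, so they are not a matched background for sites within 50 kb of a gene. TIMP2 had 9 of the 20, MMP2 and MMP14 3 each, PLAUR 2, and MMP9, TIMP1 and TIMP3 1 each. In 8 of the 20 the nearest gene end was that of the member: 4 at TIMP2, 2 at MMP2 and 1 each at MMP14 and TIMP3. The number of sites in at least 4 libraries was 9 when day 12 replicate 3 was left out, 8 when day 15 replicate 1 was and 10 when day 15 replicate 2 was. The 8 with the member nearest fell to 5 without day 12 replicate 2 and to 2, 2, 3 and 5 without day 12 replicate 3 and day 15 replicates 1 to 3. None of the 118 was found in every day 12 library and no day 15 library, and 2 (1.69%), both near TIMP2, in every day 15 library and no day 12 library. Over all sites of the series the shares were 0.139% and 0.90%. These lay 42.4 kb from TIMP2 (50 bp from LGALS3BP) and 19.6 kb from it.

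Because the lists differ in length, summits within 50 kb were expressed per 10000 summits of the library. This scale did not level the lists. Over all genes the mean per gene was 1.2, 0.861 and 0.85 on day 12 and 0.891, 1.29 and 1.34 on day 15. The set A lists, which are the shortest, had the higher means. TIMP2 had 4.58, 2.40 and 2.60 on day 12 and 3.85, 11.49 and 10.87 on day 15. The 2 high values were the set A libraries of day 15, which share a sample code, and the days overlapped. The means were 3.19 ± 1.20 and 8.74 ± 4.25 (SD, n = 3 each), a difference of 5.55 (two-sided exact permutation p = 0.2, Benjamini-Hochberg adjusted 0.831 over 19550 genes, where 3 against 3 cannot go below 0.1). Day 15 was higher by 3.98 within sets (exact permutation within sets p = 0.111, the smallest possible, Benjamini-Hochberg adjusted 0.557). ADAMTS1 (0.97), TIMP3 (0.49) and, in the opposite direction, MMP9 (-0.45) had the same p within sets. In each set the day 15 lists were the longer ones, so values within sets do not separate day from list length. The difference of 5.55 for TIMP2 was between 4.17 and 7.99 when single libraries were left out.

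MMP14 was the one member whose days did not overlap on this scale. It had 1.53, 1.50 and 2.08 on day 12 and 2.14, 2.42 and 3.34 on day 15, with the lowest day 15 value just above the highest of day 12. The means were 1.70 ± 0.33 and 2.63 ± 0.63 (SD, n = 3 each), a difference of 0.93 (exact permutation p = 0.1, adjusted 0.755). Among all genes, 9.51% had days that did not overlap with day 15 higher, and 3.74% with day 12 higher. The values 2.42 and 3.34 came from set A libraries, where the mean over all genes was also higher (1.29 and 1.34, against 0.891 in day 15 replicate 1). In day 12 replicate 3, MMP14 had 2.08 where the mean over all genes was 0.85. In day 15 replicate 2 it had 2.42 where that mean was 1.29. Relative to the mean over all genes, day 12 replicate 3 thus lay above day 15 replicate 2, and the days overlapped. Only 8 of the 41 summits counted for MMP14 were nearest to it, and its windows hold 6 other genes. Within sets the difference was 0.85 (p = 0.222, exact permutation within sets), and it fell to 0.58 without day 15 replicate 3.

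For the remaining members the days overlapped. ADAMTS1 differed by 0.72, from 0.33 ± 0.35 to 1.05 ± 0.58 (SD, n = 3 each, exact permutation p = 0.2), and it was 0.39 without day 15 replicate 1. TIMP1, TIMP3 and PLAU differed by 0.34, 0.27 and 0.16 and MMP2, PLAUR and MMP9 by -0.05, -0.07 and -0.14 (exact permutation p from 0.3 to 1). Of the 9 members, 0 passed an adjusted p of 0.05, as did 0.0% of all genes, since this design cannot pass it. At an unadjusted p under 0.05 the count is also 0. Summed over the 9 genes, the values were 10.68, 8.41 and 10.91 on day 12 and 13.11, 19.96 and 20.07 on day 15. Without TIMP2 they were 6.10, 6.01 and 8.31 on day 12 and 9.27, 8.47 and 9.20 on day 15. The mean per gene over the members was 0.987, 1.09 and 1.43 times that over all genes on day 12 and 1.64, 1.72 and 1.66 times on day 15. Without TIMP2 the ratios were 0.634, 0.872 and 1.22 on day 12 and 1.30, 0.820 and 0.855 on day 15, so the days overlapped and the excess on day 15 was left in replicate 1 alone.

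**Figure D4:**
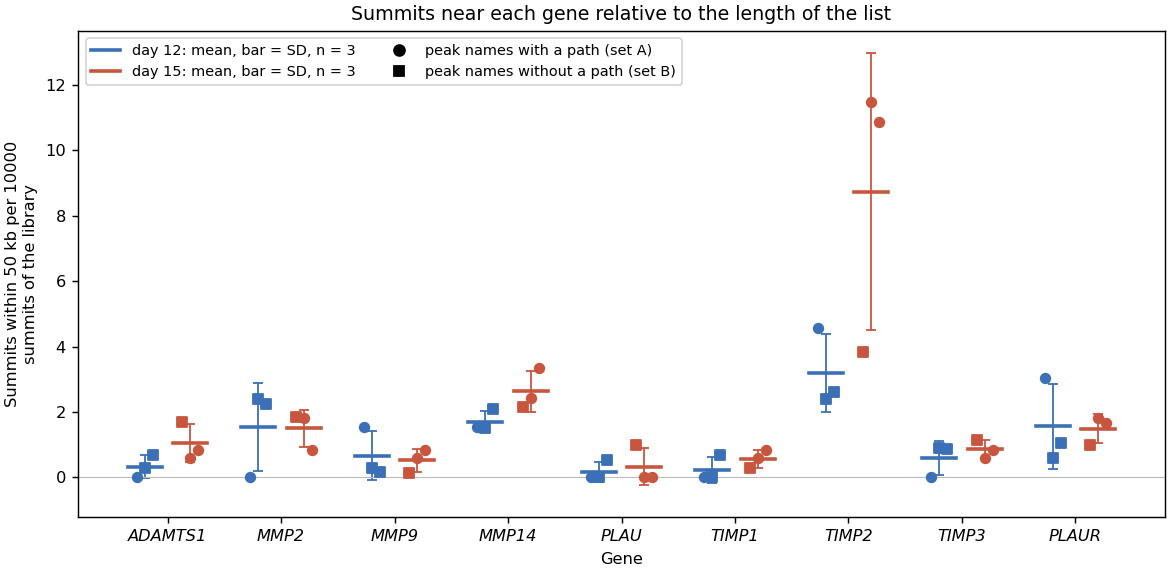
Points are summits within 50 kb of each gene per 10000 summits of the library, by day (day 12 blue, day 15 red) and by form of peak name (circles set A, squares set B), with the mean and SD of 3 libraries. TIMP2 in day 15 replicates 2 and 3 (11.49 and 10.87) stands above all other values. MMP14 is the gene whose day 12 and day 15 points do not overlap on this scale, though they do relative to the mean over all genes.

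Within 5 kb of the members, summits were seldom among the highest of a list. Farther out some were, such as the site inside MMP2 in day 15 replicate 1 (96.6). The site 47.6 kb below PLAUR, at IRGQ, had at least 99.5 in each list. Taking the best summit within 5 kb of each member in each library gave 27 values, with a median percentile of 60.4 and a highest of 90.4, that of TIMP2 in day 15 replicate 1, which lay nearer to USP36. Over all genes with a summit, the median of the best percentile was between 47.2 and 66.8 in the 6 libraries. The members lay above the median of their library in 12 of 27 values, 5 of them in day 15 replicate 1.

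Other genes of matrix proteolysis were counted equally often on both days under the rule of 2 libraries, but the numbers moved with the rule. Of 89 genes listed from textbook families, 87 matched the annotation, and 34 had a summit within 5 kb in 2 of 3 libraries on day 12 and 34 on day 15, of which 23 were the same. This is 39.1% on each day, against 38.1% and 46.3% of all genes. With equal lists there were 13 on day 12 (14.9%) and 16 on day 15 (18.4%), against 9.68% and 20.3% of all genes. Within 50 kb there were 74 (85.1%) and 65 (74.7%), against 80.0% and 74.2%. Leaving out day 12 replicate 2 gave 12 genes on day 12, and leaving out replicate 3 also gave 12. Of 17 further matrix metalloproteinase genes, 8 were counted on day 12 and 5 on day 15. Of 27 ADAM and ADAMTS genes the numbers were 7 and 8, of 10 plasminogen system genes 4 and 5, of 18 genes of cathepsins and other proteases 10 and 10, and of 15 inhibitor genes 5 and 6.

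Presence in 3 of 3 day 15 and 0 of 3 day 12 libraries held for 3 of the 87 (3.45%, against 2.83% of all genes), and the reverse for 0. They were ADAMTS9, another proteoglycan-cleaving protease with 4, 1 and 1 summits on day 15, CSTB (cystatin B, an inhibitor of cathepsins) with 1, 1 and 1, and F12 (coagulation factor XII) with 2, 1 and 1. Of the 87 genes, 10 had a summit in all 6 libraries (11.5%, against 13.1% of all genes). Among these were the sheddases ADAM9 and ADAM17, ADAM28, BSG (basigin, an inducer of metalloproteinases), the cathepsin gene CTSZ, the meprin gene MEP1B and the inhibitor gene SLPI. MMP8 (neutrophil collagenase) and MMP27, neighbours on chromosome 9, were also in all 6. Their 5 kb windows overlap, so the same summit can be counted for both.

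By presence at 5 kb over the 6 libraries, ADAMTS1, MMP14 and TIMP3 had the same pattern as the pathway genes ADAM10 and ADAMTS15 and as 5.21% of all genes. Measured as the distance between summits per 10000 within 50 kb over the 6 libraries, ADAMTS15 was the closer to ADAMTS1 (0.33) and ADAM10 the closer to TIMP3 (0.70) and to MMP14 (3.49). MMP2 shared its pattern with MMP11, among others (3.67% of all genes). PLAUR shared its pattern with HTRA1 and S100A10 (2.40% of all genes), PLAU with CTSS and PCSK6 (5.21%), and TIMP2 with MEP1B and BSG (13.1%). MMP9 and TIMP1 shared theirs, no summit in any library, with PLAT and ADAMTS16.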

How the data were processed

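Per the submitters' processing notes, reads were processed with Bowtie2 2.3.5.1, SAMtools 1.9 and MACS2 2.1.2 on susScr11; for thresholds, use of input and removal of duplicates the sources used here give nothing. The authors deposited 1 list of summits per ChIP library, each with a score on a −log10 scale of significance, a p-value or a q-value (not stated). Scores ranked or filtered summits inside their own list. The lowest score was 2.02 in day 12 replicate 1 and 1.31 to 1.37 in the others. The 6 input samples were not analysed here.

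Of 198341 summits, the 196220 on assembled chromosomes were used, with positions counted from 1. Gene starts and ends came from RefSeq's Sscrofa11.1 table, which has neither strand nor sequence nor exons; the planned motif search was therefore not run, and ends are named by coordinate. Days were compared with two-sided exact permutation tests over 20 divisions for all 19550 genes, with Benjamini-Hochberg adjustment, and within sets A and B over 9 arrangements (Python 3.11.15, numpy 2.4.6). The counting was tested on simulated data.

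All members were named. Pathway genes were named first when they separated the days, then when present in all 6 libraries, up to 12 in alphabetical order, and as the pathway genes most like each member. One gene that this rule names is not reported here. Members and lists were chosen with earlier results of these data known. Alternatives were score minimums of 5 and 10, equal lists, windows of 1, 10 and 50 kb, the gene body, 1 or 3 libraries of a day, joining within 100 or 500 bp, each library left out, a replicate block, sets A and B, and plain numbers. A score minimum of 2.1 was added after seeing the data.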

Additional observations from a re-analysis of the deposited data

How the results depend on the processing

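The higher day 15 number of genes with a summit per library kept its direction under every alternative run, at 0.67 to 4.17 genes within 5 kb and 0.33 to 2.83 within 50 kb. All runs drew on the same 6 lists. Per library, the share of all genes within 5 kb was 17.2%, 38.4% and 54.1% on day 12 and 64.8%, 44.6% and 37.6% on day 15. Within 50 kb it was 46.6%, 80.7% and 88.4% on day 12 and 90.4%, 71.6% and 65.1% on day 15. Under the rule of 2 libraries, a different measure, it was higher on day 15 within 5 kb (46.3% against 38.1%). By that rule it was lower on day 15 within 50 kb (74.2% against 80.0%). The day 12 count of members within 5 kb (2) was 1 with a score of at least 10 or with all 3 libraries required, 0 with equal lists or a 1 kb window, 7 with a 50 kb window or 1 library, and 1 to 2 with single libraries left out. The day 15 count (6) was 3 with a score of at least 5, 1 with a score of at least 10, 1 with equal lists, 4 with all 3 libraries, 4 with 1 kb, 8 with 50 kb, 7 with 1 library, and 4 to 6 with single libraries left out. Of these alternatives, the share of all genes is given above only for equal lists and the 50 kb window, so the other counts have no background. Members separating the days (0) numbered 0 to 3 with single libraries left out. The other pathway genes (34 on day 12) numbered 18 with a score of at least 10, 13 with equal lists, 15 with 1 kb, 74 with 50 kb, 52 with the gene body, 12 with all 3 libraries, and 12 to 34 with single libraries left out. On day 15 (34) they numbered 13 with a score of at least 10, 16 with equal lists, 25 with 1 kb, 65 with 50 kb, 46 with the gene body, 23 with all 3 libraries, 65 with 1 library (50 on day 12), and 24 to 34 with single libraries left out. For the pathway genes too, only the counts with equal lists and the 50 kb window have a background. The others cannot be read as a difference between the days in these genes. Sites in at least 4 libraries (20) numbered 11 and 4 with scores of at least 5 and 10, 3 with equal lists, and 8 to 19 with single libraries left out, when 4 of 5 libraries were required. Those with the member nearest (8) numbered 3, 0 and 0 in the same settings, 5 with joining within 100 bp, and 2 to 7 with single libraries left out.

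Differences per 10000 summits turned in direction as follows. With equal lists they were -0.51 for ADAMTS1, 0.51 for MMP2 and 1.02 for MMP9. With a score of at least 10 they were -0.21 for ADAMTS1, 1.52 for MMP9 and 0.03 for PLAUR, and with at least 5, 0.71 for MMP9 and -0.33 for TIMP3. With a score of at least 2.1, chosen after seeing the data, they were 0.11 for MMP2 and 0.03 for PLAUR. Within sets MMP2 was 0.43, and the plain number of PLAUR was 0.67. With single libraries left out they ranged from -0.83 to 0.38 for MMP2, -0.38 to 0.29 for MMP9, -0.17 to 0.33 for PLAU, -0.02 to 0.43 for TIMP3 and -0.55 to 0.67 for PLAUR. Those of MMP14 and TIMP2 kept their direction in every setting run, and that of TIMP1 in all but the plain number of summits, where it was 0. The causes were not tested. Leaving out a library leaves 2 of a day, which then both need a summit.

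Whether the replicate numbers pair the samples could not be told. Deviations from the day means over all genes correlated at -0.45, -0.14 and -0.30 for the same-numbered pairs. Each of these joins a set A and a set B library. The other pairs across sets had -0.31 and -0.17, and pairs within a set had 0.18 to 0.39. With 3 libraries a day the replicate block leaves the differences of 2.33 and 1.67 genes and those per 10000 as they are by construction and cannot pass a threshold, so it says nothing of stability. It gave p of 0.25 for MMP14 and 0.5 for TIMP2 (exact sign-flip permutation, smallest possible 0.25). Sequencing depth is unknown and limits every absence of a summit: the lists from 6557 to 70152 summits cannot show that a gene lacks binding.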
